A study of Schizosaccharomyces pombe with 2 samples.

Results

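The genes described here end their mRNAs in at least 2 separate places. They are 183 protein-coding genes of fission yeast (Schizosaccharomyces pombe), 6.68% of the 2739 coding genes with enough reads and 183 of 5113 coding genes in all. They were chosen from the measured profiles themselves. A gene needed a window total of at least 200 in each replicate, where the window is the 400 nt after the stop codon. The window was cut into bins of 20 nt, and in both replicates the bin with the most reads and another bin at least 100 nt away each had to hold at least 20% of the window's reads. The shape of these profiles is therefore a description of how they were chosen, while sequence, annotation, neighbouring genes and function were not used in the choice. The rule does ask for a site far from the stop codon, and no member had its downstream site before 121 nt. Annotated UTR length and reach into the next gene are therefore partly bound to the choice.

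The poly(A) sites were mapped by 3' READS, a sequencing method that captures the junction between an mRNA and its poly(A) tail, so that a read marks where a transcript was cleaved. The 2 libraries, replicates A and B, are wild-type cells with the source name FWP9, kept at 30 °C in exponential growth in the rich medium YPD. With a single group there was nothing to test one condition against another. Whether A and B were separate cultures is not stated in the labels, and the difference between them, given below as an SD with n = 2 or as the values of A and B, may be technical.

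Most eukaryotic genes can be cleaved and polyadenylated at more than 1 place, which is called alternative polyadenylation. The cleavage machinery reads an A-rich signal, of which AATAAA, read as U in place of T in the RNA, is the best known form, a short distance upstream of the cut. Where a nearer and a farther site lie in the same 3' untranslated region (UTR), the protein stays the same while the UTR, with the elements that bear on stability, translation or localisation, becomes shorter or longer. Fission yeast genes lie close together, so a farther site can also bring a transcript up to or into the next gene.

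The DNA just upstream of both sites is shown first for the 8 members with the most reads, because in these genes the depth fixes the sites best. The sequences are from the RefSeq assembly ASM294v3, whose stop codon coordinates equalled the deposited ones for all 5113 coding genes. Each run is the 30 bases of the gene's strand that end at the most used position of a cluster, 5′ to 3′. Capitals mark AATAAA where it is present, and otherwise whichever of its 18 single-base variants lies nearest to the site. A run with no capitals holds none of the 19. In sites under 30 nt from the stop codon, here the upstream sites of rpl1101 and rpl702, the run begins inside the coding sequence.
sks2 upstream site, 107 nt after the stop codon, chrII:1108375-1108404, plus strand: taggactaccaaaatgtaattattactcgg
sks2 downstream site, 207 nt after the stop codon, chrII:1108475-1108504, plus strand: cttaAATAAGagaatcgttaattgtgtccg
rpl1202 upstream site, 38 nt after the stop codon, chrIII:627174-627203, minus strand: ataagttaatgtaaacggattatgtgcttg
rpl1202 downstream site, 149 nt after the stop codon, chrIII:627063-627092, minus strand: tacagtgtttAATATAggtttctcttgcat
sup35 upstream site, 73 nt after the stop codon, chrIII:1537568-1537597, plus strand: caaatgtatgacactttatggttctactgt
sup35 downstream site, 373 nt after the stop codon, chrIII:1537868-1537897, plus strand: aaatgtgatAATAAGttgttgtttttttac
ilv3 upstream site, 156 nt after the stop codon, chrI:2351215-2351244, minus strand: aataattttgaatgAATAATtactttttgg
ilv3 downstream site, 353 nt after the stop codon, chrI:2351018-2351047, minus strand: AAAAAAtttaaattgatacttttttattct
rps2401 upstream site, 68 nt after the stop codon, chrI:3599615-3599644, plus strand: ataaagtaatgagatgtattcacttgatgg
rps2401 downstream site, 207 nt after the stop codon, chrI:3599754-3599783, plus strand: gtttgatctctaatatAATAATttttgaac
rpl1101 upstream site, 23 nt after the stop codon, chrI:3346312-3346341, minus strand: caAATAAAtataataagaatgtttatcatt
rpl1101 downstream site, 201 nt after the stop codon, chrI:3346134-3346163, minus strand: ttttaatgAATATAagggattacggttgtt
rpl702 upstream site, 29 nt after the stop codon, chrI:3429688-3429717, minus strand: agTATAAAatttggcttttcggttttcttg
rpl702 downstream site, 155 nt after the stop codon, chrI:3429562-3429591, minus strand: gtggtatggaattgattaacttggaaatgc
gas2 upstream site, 37 nt after the stop codon, chrII:2555434-2555463, plus strand: attaatccttattcaattttttcatttctc
gas2 downstream site, 121 nt after the stop codon, chrII:2555518-2555547, plus strand: cAATAACatcctttgacaattttattagtc

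In this set of 8 genes a hexamer stood at 3 of 8 upstream sites and at 7 of 8 downstream sites. AATAAA itself occurred once, at the upstream site of rpl1101. A further 5 genes show AATAAA itself: ubp15, tam14 and cbm1 carry it before both sites, vma3 before the downstream site and crb3 before the upstream site.
ubp15 upstream site, 104 nt after the stop codon, chrII:866436-866465, minus strand: gtttcaatcAATAAAttgatatattctggc
ubp15 downstream site, 237 nt after the stop codon, chrII:866303-866332, minus strand: taAATAAAatcgataatcgcccgctctttt
tam14 upstream site, 106 nt after the stop codon, chrIII:115333-115362, plus strand: ttttgaatAATAAAgcttgtgatattgacg
tam14 downstream site, 339 nt after the stop codon, chrIII:115566-115595, plus strand: agcatgtttAATAAAttactatagcaaatt
cbm1 upstream site, 128 nt after the stop codon, chrI:2935382-2935411, minus strand: gatatgAATAAAttaactttattttatttt
cbm1 downstream site, 331 nt after the stop codon, chrI:2935179-2935208, minus strand: tagaagatattAATAAAacgttttaagtat
vma3 upstream site, 66 nt after the stop codon, chrI:4955480-4955509, plus strand: ttatacacaaattgattttacttgctttac
vma3 downstream site, 201 nt after the stop codon, chrI:4955615-4955644, plus strand: gcacgctaagctAATAAAatcaatcataat
crb3 upstream site, 53 nt after the stop codon, chrI:2310333-2310362, minus strand: tgAATAAAattataagggattggaataatt
crb3 downstream site, 150 nt after the stop codon, chrI:2310236-2310265, minus strand: ttaaatatgttgAATTAAttttttatcgtt

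sks2, which encodes a ribosome-associated Hsp70 chaperone, was the deepest member, with 141078 window reads in replicate A and 129122 in replicate B. Its reads fell at 107 and 207 nt, and the upstream share, meaning the reads at or before the midpoint between both sites as a share of the window, was 46.1% in A and 41.6% in B. Its downstream bin held the larger part in both replicates. sup35 encodes the translation release factor eRF3 and had sites at 73 and 373 nt, so that its longer UTR is 300 nt longer than its shorter one. The upstream share of sup35 was 57.8% in A and 54.0% in B (55.9% ± 2.73, SD, n = 2). ilv3, which encodes dihydroxy-acid dehydratase of branched-chain amino acid synthesis, had sites at 156 and 353 nt with upstream shares of 77.4% and 70.9%. The upstream bin of ilv3 held 36.7% in A and 41.8% in B. A further bin at 101 to 120 nt, also counted upstream, held 24.5% and 16.8%. In sup35 the bin at 101 to 120 nt, likewise counted upstream, held 18.2% and 16.0%. gas2, a cell wall beta-glucanosyltransferase gene, had sites 84 nt apart at 37 and 121 nt. Its upstream share was 33.5% in A and 45.2% in B, the widest spread between replicates among these 8 genes.

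The remaining 4 of the deepest members encode ribosomal proteins. rpl1202 (60S protein uL11) used sites at 38 and 149 nt with upstream shares of 24.1% and 24.4%. rpl1101 (60S protein uL5) used 23 and 201 nt with shares of 71.3% and 71.6%. Both genes thus gave nearly the same division in the 2 libraries, with opposite sites leading. rps2401 (40S protein eS24) used 68 and 207 nt and had shares of 53.8% and 47.1%. rpl702 (60S protein L7) used 29 and 155 nt and had shares of 33.0% and 26.1%. These shares count nearly all of a further bin, at 81 to 100 nt, as downstream. Of the reads within 20 nt of either site, 45.0% in A and 34.3% in B lay at the upstream one. Only rpl1101 of these 4 had almost all of its reads in 2 narrow clusters, since rps2401, rpl702 and rpl1202 also show smaller bins between or beside both sites in the plot of profiles.

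**Figure D1:**
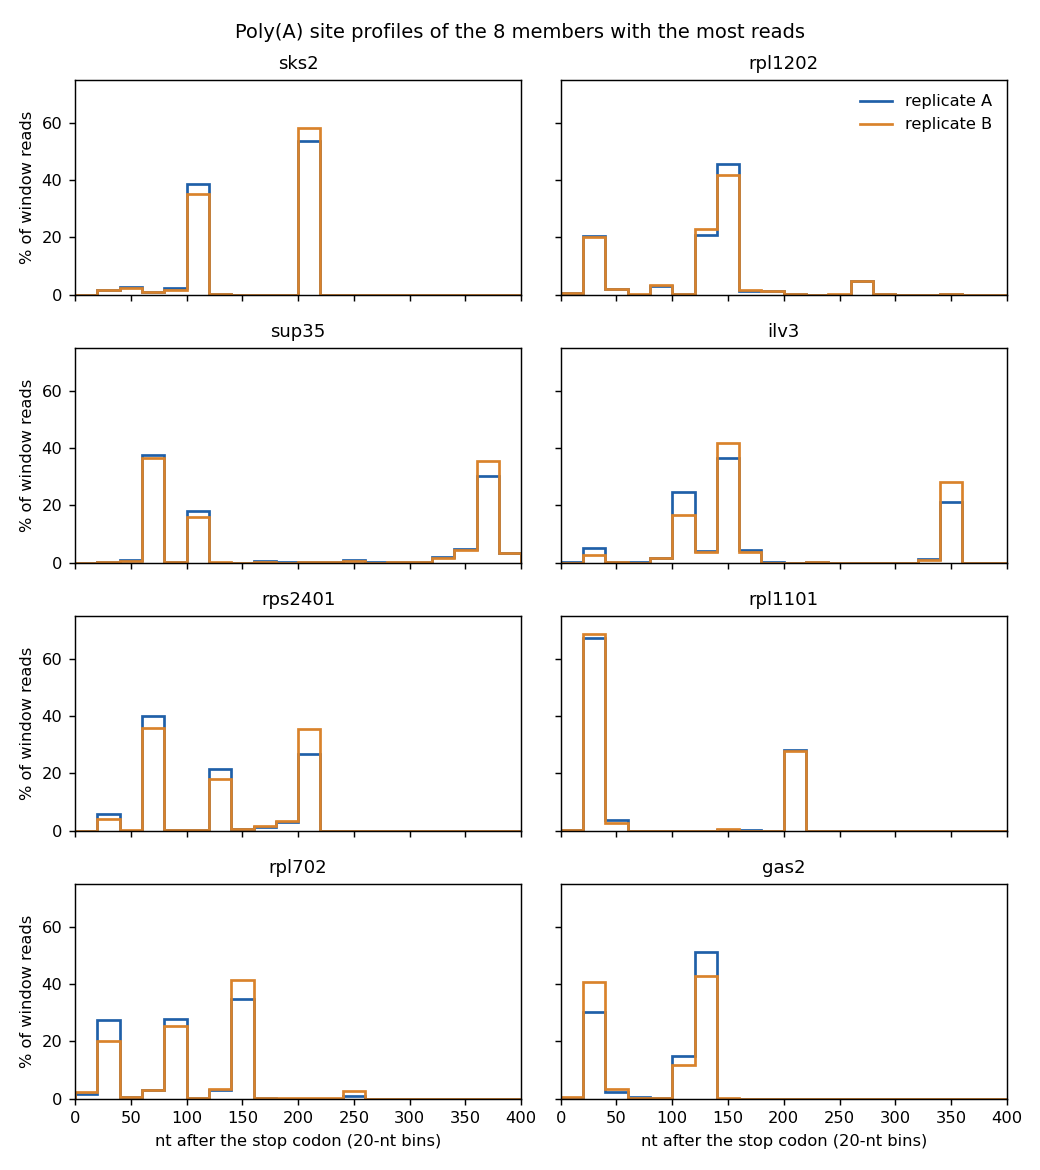
Poly(A) site profiles of the 8 members with the most reads. The x axis is the distance after the stop codon in nt, in bins of 20 nt, the y axis is the percent of the window's reads per bin, and the lines are replicates A and B. Each gene has 2 tall bins at least 100 nt apart, for example at 107 and 207 nt in sks2 and at 73 and 373 nt in sup35, and both replicates place them in the same bins. In rpl702 and rpl1202, and in replicate A of ilv3, a further bin is taller than the lower of these 2.

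Each of these 4 ribosomal protein genes was compared with 1 duplicate elsewhere in the genome that was also measured, and none of these duplicates had a second cluster. Any further copies were not looked at. The pairs were looked at after the members' values were known. rps2402 had 98.8% of its reads in a single bin in A and 97.5% in B, with its most used position at 61 nt. rpl701 had 96.0% and 96.1% in 1 bin around 45 nt. rpl1102 had 99.1% in both replicates around 56 nt, and rpl1201 had 98.4% and 98.5% around 44 nt. The duplicates without a second cluster were the deeper copy in all 4 pairs: rpl1201, for example, had 812129 and 798610 reads against 92703 and 81593 for rpl1202. How reads shared by near-identical copies were assigned is not given in the sources used here. Over all cytosolic ribosomal protein genes, 4 of 131 (3.05%) were members, a lower share than the 6.68% of all eligible genes.

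**Figure D2:**
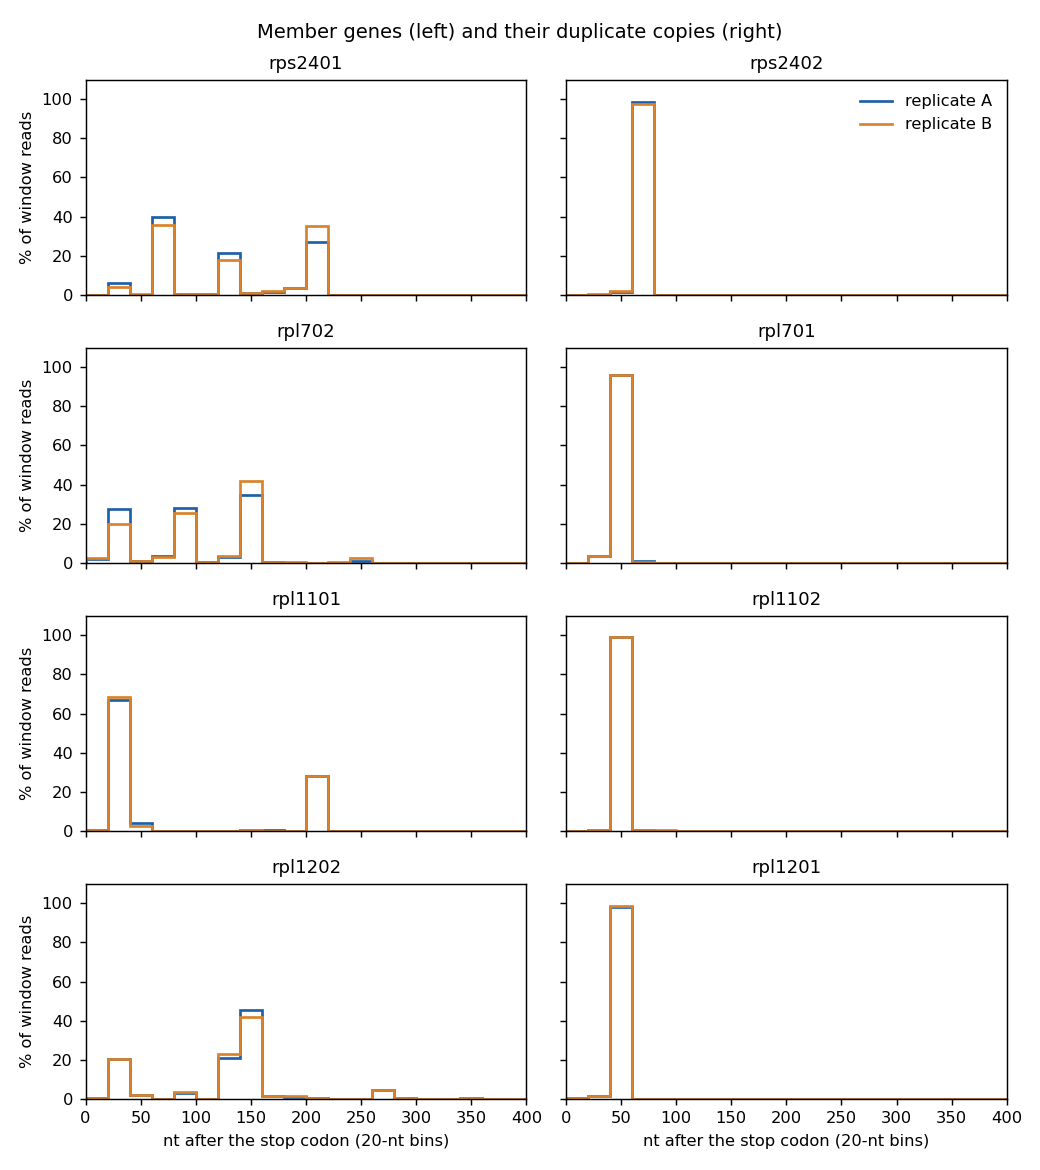
Profiles of the 4 member ribosomal protein genes (left column) and of 1 duplicate of each (right column). The axes are nt after the stop codon in bins of 20 nt and percent of window reads, with 1 line per replicate. Every duplicate has 1 bin with 96.0% to 99.1% of the reads, while its partner on the left is split.

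Across the 183 members the upstream site lay at a median of 77 nt after the stop codon (quartiles 38.5 and 131.5 nt, range 7 to 296 nt). The downstream site lay at a median of 245 nt (quartiles 191 and 322 nt, range 121 to 400 nt). An upstream site within 50 nt of the stop codon was found in 55 members, and 116 had it within 100 nt. The downstream site was past 300 nt in 61 members, and sites beyond 400 nt cannot be seen in these windows. The distance between both sites had a median of 140 nt and ran from 84 to 369 nt. It was under 100 nt in 21 members, because the rule asked for 100 nt between bin starts and not between sites. Distances of 100 to 149 nt were the most frequent class, with 84 members, and 44 members had sites at least 200 nt apart.

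In the 4 widest pairs a site lay very close to the stop codon and the other near the end of the window, a placement that such spacings within 400 nt fix by themselves. fma2, a methionine aminopeptidase gene, had sites at 20 and 389 nt, 369 nt apart, with upstream shares of 67.2% and 69.6%. sil1 had 14 and 371 nt, pfd5, a subunit of the prefoldin chaperone, had 22 and 372 nt, and SPCC320.03, annotated as a transcription factor, had 24 and 374 nt. The 4 closest pairs were gas2 (84 nt), dld1 (84 nt, dihydrolipoamide dehydrogenase), csn2 (84 nt, a subunit of the COP9 signalosome) and ilv5 (87 nt, acetohydroxyacid reductoisomerase). csn2 had both of its sites far from the stop codon, at 279 and 363 nt, whereas ilv5 had them at 35 and 122 nt.

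**Figure D3:**
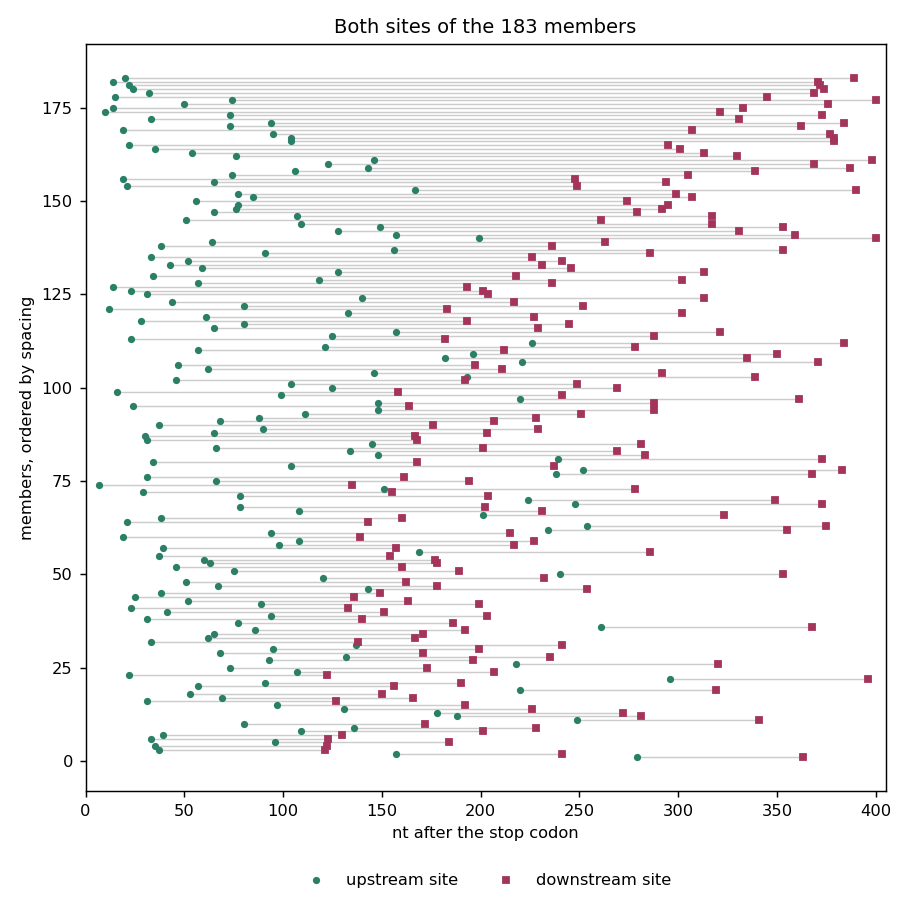
Upstream site (circles) and downstream site (squares) of each of the 183 members, ordered from the smallest spacing at the bottom to the largest at the top. The x axis is nt after the stop codon. Spacing runs from 84 to 369 nt, and the widest pairs, at the top, can only lie near both ends of the 400 nt window.

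Reads were divided about evenly over the members taken as a whole. The median upstream share was 51.2%, with 50.5% in A and 52.5% in B, and the means of single genes ran from 24.3% to 78.6%. The rule itself keeps this share away from 0 and from 100%. The share also counts reads away from both sites. Taken from reads within 20 nt of each site its median was 51.8%, but single genes can differ. The upstream bin was the larger in both replicates in 65 members, the downstream bin in 63, and the larger bin differed between replicates in 55. pabp, encoding the major poly(A) binding protein, had the highest upstream share, 78.6% in both replicates, at 239 against 373 nt. img2, a mitochondrial ribosomal protein gene, followed with 77.9% and 74.4%, and bzz1 with 78.5% and 73.1%. At the other end, rpl1202 was followed by vma3, the proteolipid subunit of the vacuolar ATPase, with 21.5% and 27.5%, and by rar1, a methionine-tRNA ligase gene, with 24.1% and 25.7%. Closest to an even division in the mean were cit1 (citrate synthase), mgr2, gfa1 and cdc8 (tropomyosin). Of these only cdc8 was even in each replicate, at 48.8% and 50.6%, while gfa1 had 41.8% and 58.8%, mgr2 58.3% and 42.2%, and cit1 43.2% and 56.5%. Of the gfa1 reads within 20 nt of either site, 19.5% in A and 51.6% in B lay at the upstream one.

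The upstream share differed between A and B by a median of 6.22 percentage points (quartiles 2.85 and 10.4 points). It differed by at most 5 points in 77 members, by at most 10 points in 133 and by more than 15 points in 26. The difference was smaller in deeper genes: its median was 8.21 points in the 59 members with under 500 reads in the shallower replicate, 6.09 points in 83 with 500 to 2000 reads, and 4.53 points in 41 with 2000 or more. The direction was balanced, with the share larger in A in 94 of 183. The largest difference, 38.2 points, was that of cut3, which encodes an SMC subunit of condensin. cut3 had 67.2% of its 958 reads upstream in A and 29.0% of its 614 reads in B, so its leading site changed between the libraries. abc1, an ABC transporter gene, had 35.8% and 61.1%, and mrl1, annotated as a mannose 6-phosphate cargo receptor, had 70.7% and 48.9%. In rtt106, a histone chaperone gene and the shallowest member, 49.6% of 234 reads lay upstream in B (95% Wilson interval 43.2% to 55.9%). Reads are not independent molecules, so the interval covers counting error only.

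**Figure D4:**
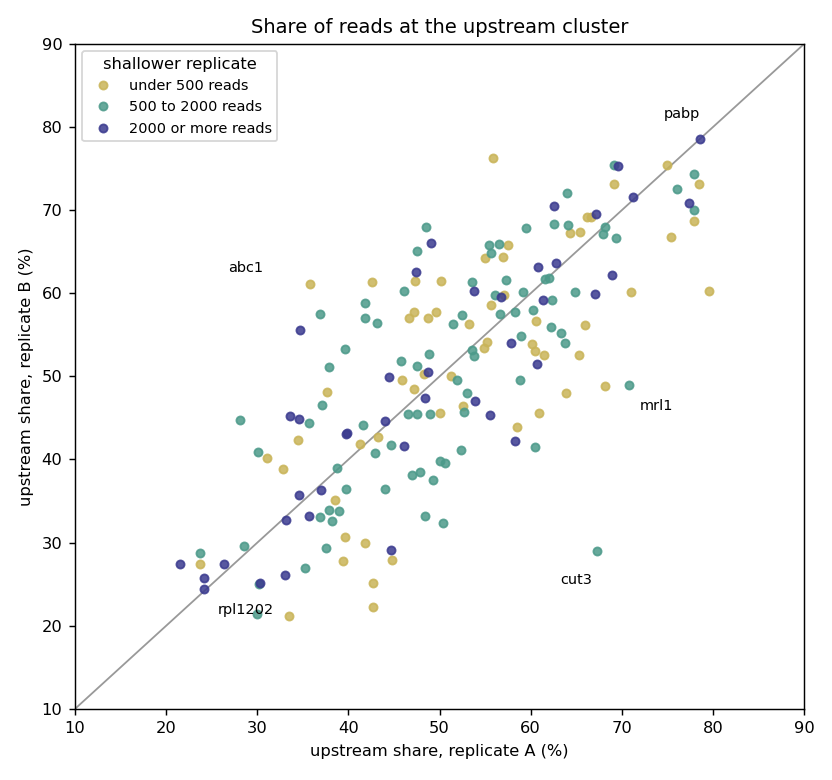
Upstream share of each of the 183 members in replicate A (x axis, %) and replicate B (y axis, %), coloured by the reads of the shallower replicate, with the line of equal shares. Members with 2000 or more reads lie closer to the line than those with under 500 reads, with median differences of 4.53 and 8.21 points, and cut3 lies farthest from it.

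Membership depended on both libraries. Of the eligible genes, 292 met the rule in A and 291 in B, and the 183 members are 62.7% of the former and 62.9% of the latter. The same pair of 20-nt bins met it in both replicates in 154 members. In the other members, such as gfa1, whose bin at 221 nt held 8.80% of the reads in A and 26.3% in B, the replicates passed with different bins. Just inside the threshold were rpl702 and ilv5, each with a lower bin of 20.02%, and cdc13 with 20.08%. Just outside were cph2 and wwm1, which fell short by less than 0.01 points, and SPAC4A8.14 with 19.96%. The division was rarely complete: a further bin held at least 10% in 61 members, and both bins together held at least 80% of the reads in both replicates in 43. The most used single position of the upstream cluster held a median of 24.6% of the window's reads in A and 24.7% in B, and that of the downstream cluster 22.8% and 23.0%.

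Members were somewhat shallower than other eligible genes, with a median of 744 against 996.5 reads in the shallower replicate. Their reads ran from 229 to 141078 in A and from 234 to 129122 in B, out of 50973029 and 54738821 window reads in all, of which members held 1.61% and 1.40%. They were spread over the genome in proportion, with 88 members on chromosome I (6.85% of its eligible genes), 69 on chromosome II (6.71%) and 26 on chromosome III (6.09%). Reads inside the coding sequence were few: a member had a median of 0.363% of its deposited signal there in A and 0.817% in B, against 0.261% and 0.628% for other eligible genes. In 12 members it was over 5% in both replicates, and it was highest in mug161, a CwfJ family splicing factor gene, with 58.1% and 51.0% of its reads in the coding sequence.

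Among the sequence features, a hexamer of the AATAAA type was more frequent before the downstream than before the upstream sites. Whether these hexamers act as poly(A) signals was not tested. AATAAA or a variant of it lay within the 30 bases before the downstream site in 123 members (67.2%) and before the upstream site in 107 (58.5%). The most used site had one in 120 members (65.6%) and in 67.2% of the other 2556 eligible genes. The lead of the downstream sites rested more on replicate B: with the rule applied to A by itself, a hexamer stood at 61.0% of downstream and 57.2% of upstream sites, and with B by itself at 67.3% and 55.9%. Any 30-base window of the eligible genes held one in 35.1% of 1016169 windows, on the gene's strand. AATAAA itself was found at 37 downstream sites (20.2%), at 23 upstream sites (12.6%), at the most used site of 20.2% of members and 19.4% of other genes, and in 4.92% of all windows. A hexamer stood at both sites in 70 members, at the downstream site alone in 53, at the upstream site alone in 37 and at neither in 23. Its first base lay a median of 22 nt before the upstream site and 21 nt before the downstream one. The 30 bases had a median of 73.3% A and T at both kinds of site, against 76.7% at the most used site of other genes. A median of 4 of the 10 bases after the site were A at both sites and in other genes.

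The upstream share is given next by where AATAAA stands, with the limit that the rule itself holds this share towards the middle. The 6 members with AATAAA at both sites had a median upstream share of 56.8%. ubp15, a ubiquitin hydrolase gene, is one of them, with 62.0% and 61.8% at 104 and 237 nt, and cbm1 had 53.6% and 53.2% at 128 and 331 nt. tam14, of unknown function, had 36.9% and 33.1% at 106 and 339 nt, so an AATAAA at both sites went with either site leading. The 17 members with AATAAA at the upstream site alone had a median upstream share of 55.8%, made of 61.3% in A and 48.9% in B. The 31 with it at the downstream site alone had 50.8%, and the 129 with it at neither had 50.5%. crb3, a subunit of the rixosome that acts in ribosome biogenesis and has AATAAA at its upstream site alone, had upstream shares of 61.3% and 59.1%. vma3, with AATAAA at its downstream site alone, had 21.5% and 27.5%.

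A 3' UTR is annotated for 176 members, and 7 members and 66 other eligible genes have none and are left out here. The annotated 3' end lay within 40 nt of the downstream site in 72 of the 176 (40.9%), within 40 nt of the upstream site in 4 and near neither in 100. It lay within 40 nt of the most used site in 39 of the 176 (22.2%) and in 39.2% of the 2490 other genes. Where it was near neither site, it was mostly farther out, past the downstream site in 89 and between both sites in 11. Annotated UTRs of members were longer, with a median end at 310 nt against 223 nt. The annotated end was past the 400 nt window in 33.5% of members and in 19.9% of other genes, and for these the window shows only a part of the UTR. Both contrasts are partly bound to the rule, which asks every member, but not the other genes, for a site far from the stop codon. rpl1202, rps2401 and cut3 are examples with the annotated end at the downstream site, at 150, 207 and 226 nt. hap2, a subunit of the Ino80 chromatin remodelling complex, is annotated to end at 111 nt, next to its upstream site at 108 nt. Its upstream shares were 37.0% and 46.6%. The bin of its downstream site at 231 nt held 37.3% in A and 41.9% in B, that of its upstream site 35.4% and 27.2%.

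The next coding gene downstream was convergent, that is on the opposite strand and read towards the member, in 124 members (67.8%), against 59.3% of other eligible genes. It began a median of 547 nt away, against 501 nt. The downstream site reached the coding sequence of the next gene in 20 members (10.9%), 19 times a convergent gene and once a tandem one. The most used site reached the next gene in 12 members (6.56%) and in 74 other genes (2.90%). Since the rule asks members for a far site, this contrast is partly bound to the choice as well. ilv3 ended within the stop codon of med20, with its downstream site at 353 nt and that gene's coding sequence ending at 352 nt. SPAC1B3.01c, annotated as a uracil phosphoribosyltransferase, reached into the coding sequence of min8, which ends 74 nt away, with both of its sites, at 104 and 249 nt. Its upstream shares were 69.0% and 62.2%. SPCC320.03 reached gem1 with its downstream site alone. The tandem case was SPBP35G2.04c, an uncharacterised gene whose downstream site, at 295 nt, lay inside the coding sequence of sgo1, a shugoshin gene, which starts at 241 nt. Reads there cannot be told apart from early ends within sgo1.

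In convergent genes the choice of site also bears on whether transcripts from both strands overlap. For 85 members the convergent neighbour was itself eligible, and the neighbour's most used site was taken as its end. The upstream site alone already gave an overlap in 9 of the 85 (10.6%) and the downstream site in 31 (36.5%). In 22 members the overlap therefore existed for the longer transcript only, and these had a median upstream share of 57.1%. For the most used site of members the count was 23 of 85 (27.1%), and for that of other genes 243 of 968 (25.1%). srm1, encoding spermidine synthase, stayed 106 nt clear of dbp5 with its upstream site at 62 nt and overlapped it by 43 nt with its downstream site at 211 nt (upstream shares 60.3% and 58.0%). arp3, a subunit of the actin-organising ARP2/3 complex, overlapped the transcript of SPAC630.04c by 38 nt with its downstream site alone, and 23.7% and 28.8% of its reads were upstream. The same reads were not counted on both strands: facing windows of convergent genes held 9038 positions with at least 10 reads in A and 8309 in B, and the opposite strand held the same number, within 0.5 reads, at 6 and 0 of them. A partial mixing of strands would not be seen in this way.

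In 5 convergent pairs both genes were members. mcm5, encoding a subunit of the replicative MCM helicase, and trk1, a potassium transporter gene, have only 70 nt between their stop codons. Both have their upstream site at 65 nt, and these shorter transcripts overlap by 60 nt, while the longer ones, with sites at 279 and 229 nt, overlap by 438 nt. rsc9, a subunit of the RSC chromatin remodelling complex, and syo2 are 300 nt apart. Their shorter transcripts do not meet, the longer rsc9 transcript overlaps the shorter of syo2 by 61 nt, and both longer transcripts overlap by 161 nt. In cdc13 and dsh1 (697 nt apart), cig2 and pmc1 (737 nt) and tam14 and ura4 (524 nt) no combination of sites overlaps. The upstream shares of ura4, a gene of uracil synthesis, were 38.2% and 32.6%, those of its partner tam14 36.9% and 33.1%.

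The members were sorted into 25 lists of functions made from RefSeq product names, which took in 121 of the 183 members and 1404 of the eligible genes. The share of members in a list is read against the 6.68% of all eligible genes, and no test of a list was made. It was above that value in 16 of 25 lists. RNA polymerase subunits had none among 25 genes. The cell cycle list had the highest share, 11 of 32 genes (34.4%), and 7 of 16 among genes with a window total of at least 500. The 6.68% belongs to the total of at least 200, and the matching share at 500 is not given here. Among lists with over 10 eligible genes, next came mitochondrial ribosomal proteins with 10 of 52 (19.2%), DNA replication and repair with 6 of 37 (16.2%), the ubiquitin and proteasome genes with 15 of 120 (12.5%) and amino acid synthesis with 7 of 57 (12.3%). The smaller lists of meiosis and of cleavage and polyadenylation had 1 of 8 each (12.5%). The cell cycle genes were of low depth, with a median of 557.5 reads in the shallower replicate over the 32 genes.

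**Figure D5:**
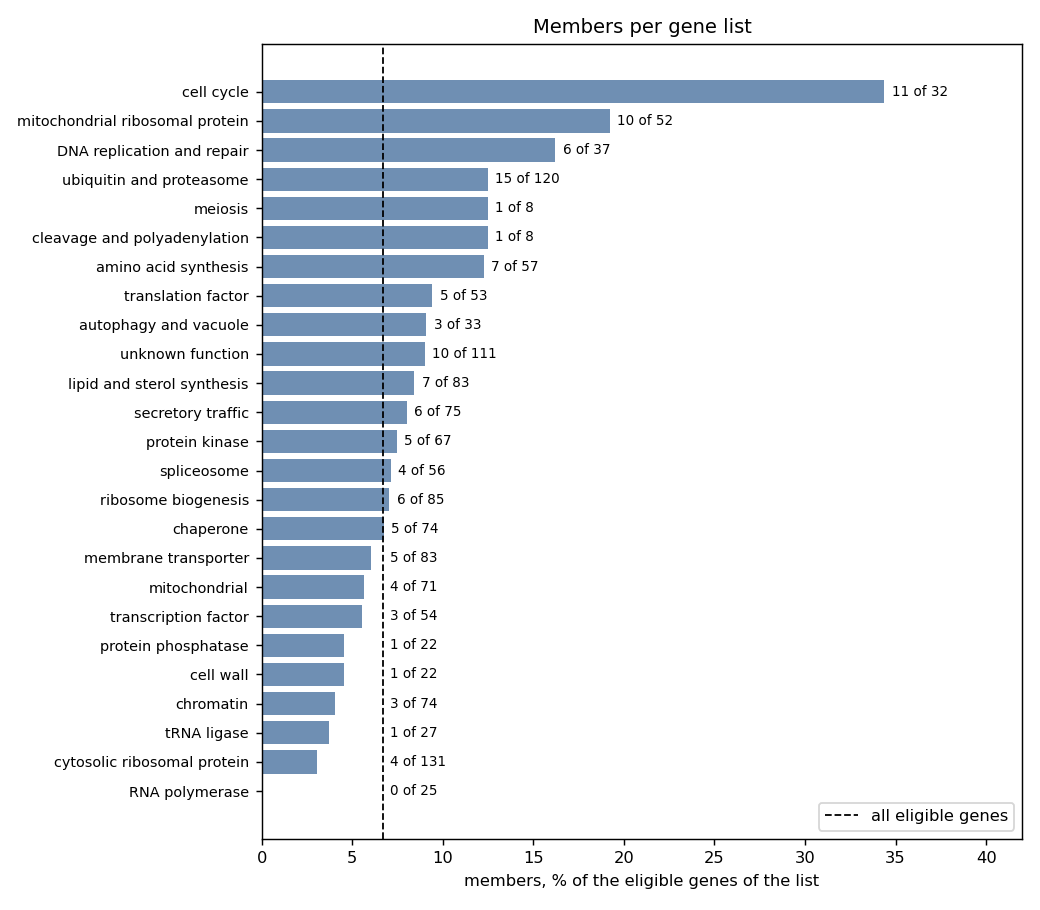
Members as a percent of the eligible genes of each of 25 lists, with the counts beside the bars and a dashed line at the 6.68% of all eligible genes. The cell cycle list stands highest at 34.4%, cytosolic ribosomal proteins are at 3.05% and RNA polymerase subunits at 0.

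Among the 11 cell cycle members, the cyclins cdc13 and cig2 are the B-type cyclins of G2/M and of entry into S phase. cdc13 had sites at 73 and 362 nt with upstream shares of 48.4% and 33.1% on 579 and 528 reads. cig2 had 220 and 361 nt with 75.3% and 66.8% on 292 and 316 reads. cdc8, the tropomyosin of the cytokinetic ring, was the deepest of the list, with 8723 and 7729 reads and sites at 157 and 321 nt, and myo2, the ring's myosin heavy chain, had sites at 57 and 212 nt with 38.6% and 35.2%. The spindle assembly checkpoint kinase gene bub1 had 12 and 183 nt with 61.6% and 61.7%, and the kinetochore gene mis15 had 86 and 192 nt with 62.4% and 59.2%. spo15 and cdc31 act at the spindle pole body. spo15 was divided in almost the same way in both replicates, 48.5% and 47.4% at 137 and 241 nt, whereas cdc31 had 79.6% and 60.3% at 35 and 301 nt. The sites in this group thus ran from 12 to 220 nt for the upstream cluster, with no common position.

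The other 3 cell cycle members belong to condensin, the complex that compacts mitotic chromosomes. cut3 is described above. cut14, the partner SMC subunit, had sites at 95 and 199 nt with 47.5% and 45.5%. cnd1, a non-SMC subunit, had 23 and 133 nt with 52.7% and 45.7%. Of the remaining subunits, cnd3 had 95.1% and 98.0% of its reads in 1 bin around 189 nt, and cnd2 had only 5 and 7 reads and was not eligible. The sites of the 3 member genes lay at different positions, and cut3 was the member that differed most between replicates. Looked at in the same way after the values were known, the MCM helicase had 2 members, mcm5 (65 and 279 nt) and mcm6 (111 and 251 nt, 23.7% and 27.4%). mcm3 and mcm7 were eligible and did not meet the rule, and mcm2 was not eligible. The remaining subunit gene, cdc21, was not found under that symbol, so its profile is not covered here. mcm7 had its largest bins at 17.3% and 22.7% upstream and 34.2% and 31.0% downstream, so that replicate A fell short of the threshold.

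The 10 genes with a mitochondrial ribosomal protein as product name had a median upstream share of 63.6%, against 51.2% for all members. They were led in depth by kgd4, with sites at 33 and 138 nt and shares of 64.1% and 68.3%. kgd4 is in this list by its product name alone, and whether it encodes a ribosomal protein was not checked. mrps28 had the lowest share, 39.6% and 30.6% at 23 and 182 nt, and bot1 had 68.0% and 67.1% at 123 and 369 nt. All 10 had under 1100 reads per replicate. Members of DNA replication and repair had a median upstream share of 38.1%, with hpz1, implicated in DNA repair, at 47.0% and 38.1%, and dpb4, a subunit of DNA polymerase epsilon, at 52.5% and 46.4%. sld3, a replication initiation gene, had 33.4% and 21.2% at 31 and 140 nt.

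Members that act in protein turnover included 3 genes for alpha subunits of the proteasome core, pre8, pre6 and pre9. A gene for a beta subunit, pts1, was also a member, with sites at 107 and 317 nt and upstream shares of 44.7% and 29.2%. How many other core subunit genes were eligible was not counted. pre8 had sites at 145 and 281 nt with upstream shares of 30.3% and 25.1%. pre6 had 21 and 249 nt with 56.7% and 59.5%, and pre9 had 234 and 355 nt with 52.3% and 41.1%. The cullin gene cul3 had 132 and 235 nt with 55.8% and 76.2% on 240 reads in each replicate, and the cullin partner rbx1 had 19 and 248 nt with 59.5% and 67.8%. Among translation factors, erf1 is the partner of sup35 in termination and was also a member, with sites at 60 and 177 nt and upstream shares of 35.7% and 33.2%. Of the erf1 reads within 20 nt of either site, 50.5% in A and 44.8% in B lay at the upstream one. tif211 (eIF2 alpha) had 39 and 157 nt with 62.6% and 70.6%, and tif301 (eIF3a) had 134 and 269 nt with 55.6% and 45.4%. In the branched-chain amino acid pathway only ilv1, ilv3 and ilv5 were compared. Of these, ilv3 and ilv5 were members, with opposite leading sites, and ilv1 was not, with 91.8% of its reads in 1 bin around 271 nt in both replicates. shm1, a serine hydroxymethyltransferase gene, had 44.0% and 44.7% at 76 and 292 nt, and arg5 had 34.7% and 55.6% at 77 and 295 nt.

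The deepest members of further lists follow. smd1, a core protein of the splicing snRNPs, had 58.3% and 57.8% at 224 and 349 nt, and sec26, the coatomer beta subunit, had 37.0% and 36.3% at 34 and 218 nt. Of the sec26 reads within 20 nt of either site, 53.8% in A and 51.4% in B lay at the upstream one. erg11, the sterol demethylase of ergosterol synthesis, had 60.9% and 63.2% at 149 and 353 nt. ekc1, a phosphatase regulatory subunit, had 28.5% and 29.6% at 74 and 400 nt, the last position of the window. The upstream share of each of these 4 changed by less than 3 points between replicates. cki2, a casein kinase 1 gene, had 39.7% and 43.0% at 196 and 350 nt, and sul1, a sulfate transporter gene, had 45.7% and 51.8% at 57 and 236 nt. tim13, of the mitochondrial import machinery, moved from 49.3% in A to 37.5% in B at 24 and 164 nt. SPBC21B10.08c, uncharacterised, had 53.8% and 60.3% at 41 and 151 nt. Among 8 eligible genes of the cleavage and polyadenylation list 1 was a member, SPAC22H10.05c, annotated as a subunit of the cleavage and polyadenylation specificity factor, with sites at 75 and 189 nt and upstream shares of 36.9% in A and 57.6% in B.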

How the data were processed

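The authors' tables, for replicate A, for replicate B and for both merged, hold 5289 features each, per the file headers. The deposited signal values give reads in the coding sequence, in the 400 nt window and at the window's highest position, the deposited percent gives coding-sequence reads of all reads, and each position is given relative to the highest. Bowtie is named in the submitters' processing notes. Version, parameters, genome build and the treatment of multiply matching reads were not given in the sources used here. Low signal values were whole multiples of 0.930 in A and 0.870 in B (100% of 4889 and 5368 values, within 0.1 of a read), and division by these steps gave reads.

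The rule used the deposited window total. Sites were the most used position, in the mean of both replicates, of the top bin and of the highest bin at least 100 nt away. Names, products, annotated ends, neighbours and sequence came from RefSeq ASM294v3. No test was made, since there was 1 group of 2 libraries. The members and lists were chosen with earlier results of these data known, and list patterns were corrected after stray matches were seen. Genes are named for depth (the 8 deepest), even division (4), widest and closest spacing (4 each), highest and lowest upstream share (3 each), replicate difference (3), nearness to the threshold (3 each side), depth within each list (1), downstream sites reaching a convergent gene (3) or a tandem one (1 exists), and AATAAA at both sites or at one (3 each). Other named members, the duplicates, condensin, MCM and other complexes, facing pairs and overlaps were chosen after their values were seen. Some list leaders are not described. Computation used Python 3.11.15, numpy 2.4.6 and pandas 2.3.3, and the scripts were tested on simulated data. Alternatives varied the depth minimum, bins, distance, share, replicates, hexamer and neighbour definition.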

Additional observations from a re-analysis of the deposited data

Results flagged for a closer look

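Outside the coding genes, 2 features that are not protein-coding genes had a window total of at least 200 in both replicates, which is signal in features that enter none of the comparisons above. Neither met the rule for 2 separate clusters. SPBPB21E7.08 had 918 reads in A and 1012 in B with its most used position at 43 nt, and SPBTRNAASN.02 had 2702 and 1983 reads with its most used position at 362 nt.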

How the results depend on the processing

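The number of members, 183, depended on the settings and on the libraries used. It was 118 with a window total of at least 500, 115 with bins of 10 nt, 74 with bins at least 160 nt apart, 327 and 80 with bin shares of at least 15% and 25%, and 402 in the merged table, and a single replicate gave 306 to 341. Bins shifted by 10 nt gave 177 genes, of which only 125 were members. The other settings gave 154 to 238. The median spacing of 140 nt became 136.5 nt (total at least 500), 142.5 nt (bins of 40 nt) and 151.5 nt (share at least 25%); it was 135 nt when genes reaching the next gene were left out, an alternative chosen after seeing the data, and 140 nt with either replicate left out. The upstream share of 51.2% was 49.3% to 50.7% in single replicates. The replicate difference of 6.22 points was 5.36 (total at least 500) and 7.23 points (reads within 20 nt of each site). The upstream hexamer share of 58.5% was 12.6% for AATAAA alone, 63.4% in 40 bases, 60.2% with a total of at least 500, 55.9% to 57.2% in single replicates and 54.4% for sites at least 30 nt after the stop codon, also chosen after seeing the data. The downstream share of 67.2% was 20.2% for AATAAA alone and 61.0% to 67.3% in single replicates, so the lead of downstream over upstream sites was smaller without replicate B. Annotated ends lay near a site in 42.6% of members, in 28.4% within 20 nt, in 43.2% when genes with no annotated UTR were left out, again chosen after seeing the data, and in 41.1% to 43.1% in single replicates. The next gene was reached in 10.9%, in 18.6% with non-coding genes counted and in 9.97% to 10.1% in single replicates. The cause of these changes was not tested. No paired analysis was possible because the libraries form 1 group. The depth limits members near 200 reads most, and nothing beyond 400 nt is seen.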
